A study of Mus musculus with 4 samples.

Results

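Homeobox genes outside the Hox clusters were examined for chromatin loops in the mouse uterus. The group was given by name and held 56 genes of 21627 protein-coding genes on the autosomes and the X chromosome: members of the Dlx, Irx, Lhx, Nkx, Pitx, Prrx, Otx and related families. Contacts were measured by Hi-C, in which DNA ends close together in the nucleus are ligated and read, and a loop is a pair of segments in more frequent contact than their surroundings. A loop belonged to a gene when an anchor, 1 of the 2 genome segments that a loop joins, overlapped the gene body extended by 10 kb on each side. A wild-type C57BL/6J uterus library was made 1 h after a subcutaneous dose of progesterone (1 mg, dissolved in sesame oil, volume 100 ul; replicate 2). A library of Ex3aERKO uterus on the same strain, which lacks estrogen receptor alpha (ERα), was made 1 h after intraperitoneal saline (100 ul). Both were set against 2 wild-type libraries taken 1 h after the same saline, vehicle replicates 2 and 3. All females were over 10 weeks old, had been ovariectomised and had rested for 10 to 14 days, so all groups were without ovaries. The progesterone uterus also differed from the vehicle uteri in carrier and route. The labels do not say if a library came from a single animal or a pool, so the spread between the vehicle libraries may be technical.

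Homeobox genes encode transcription factors that bind DNA through a homeodomain and that set the identity of embryonic regions and cell types. Unlike the clustered Hox genes they are scattered over the genome, often as small groups of related neighbours, and many lie in wide gene-poor stretches that hold distant enhancers. Where they are silent they are commonly kept so by Polycomb proteins on CpG-rich promoters, and such promoters are known to meet over long distances in the nucleus. The stroma and muscle of the uterus derive from mesenchyme, whereas the neural members are best known from brain, spinal cord and eye. The genes were therefore sorted by textbook role into 14 mesenchymal, 25 neural and 17 mixed members, the last being genes used in both settings or in other tissues. No expression was measured, so neither the tissue label nor the activity of any gene could be checked from these data.

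The lists held 11752 loops after progesterone, 21829 in the knockout, 16387 in vehicle replicate 2 and 9385 in vehicle replicate 3. They give positions on mm10 alone, so sequencing depth and loop strength are unknown, a loop that is not listed was not called, and no test between conditions was made. Intervals are exact (Clopper-Pearson) 95% binomial intervals and cover counting error only.

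Of the 56 homeobox genes, 36 had a loop in at least 1 list, and 17 had loops in every list (30.4%, with 38.8% of all protein-coding genes). The members had 36 loops after progesterone, 55 in the knockout, 63 in vehicle replicate 2 and 30 in vehicle replicate 3. As shares of the lists these were 0.306% (0.215 to 0.424), 0.252% (0.190 to 0.328), 0.384% (0.296 to 0.492) and 0.320% (0.216 to 0.456) in the same order. The knockout list held more loops at these genes than vehicle replicate 2 with gene bodies alone (39 and 38) and with a 25 kb window (74 and 72), so the order of these libraries depended on the window. Genes with at least 1 loop numbered 24 after progesterone (42.9%, with 50.0% of all protein-coding genes), 29 in the knockout (51.8%, with 65.1% of all), 34 in vehicle replicate 2 (60.7%, with 57.5% of all) and 19 in vehicle replicate 3 (33.9%, with 45.3% of all). These shares were near or below the background. The median number of loops per member was 0, 1, 1 and 0 in that order, beside 1, 1, 1 and 0 over all protein-coding genes. The members were shorter than other genes, with a median of 6.87 kb beside 17.3 kb, and had a median of 1 gene within 100 kb beside 3. Both can alter how often an anchor can reach a gene, and their part in the counts was not tested.

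**Figure D1:**
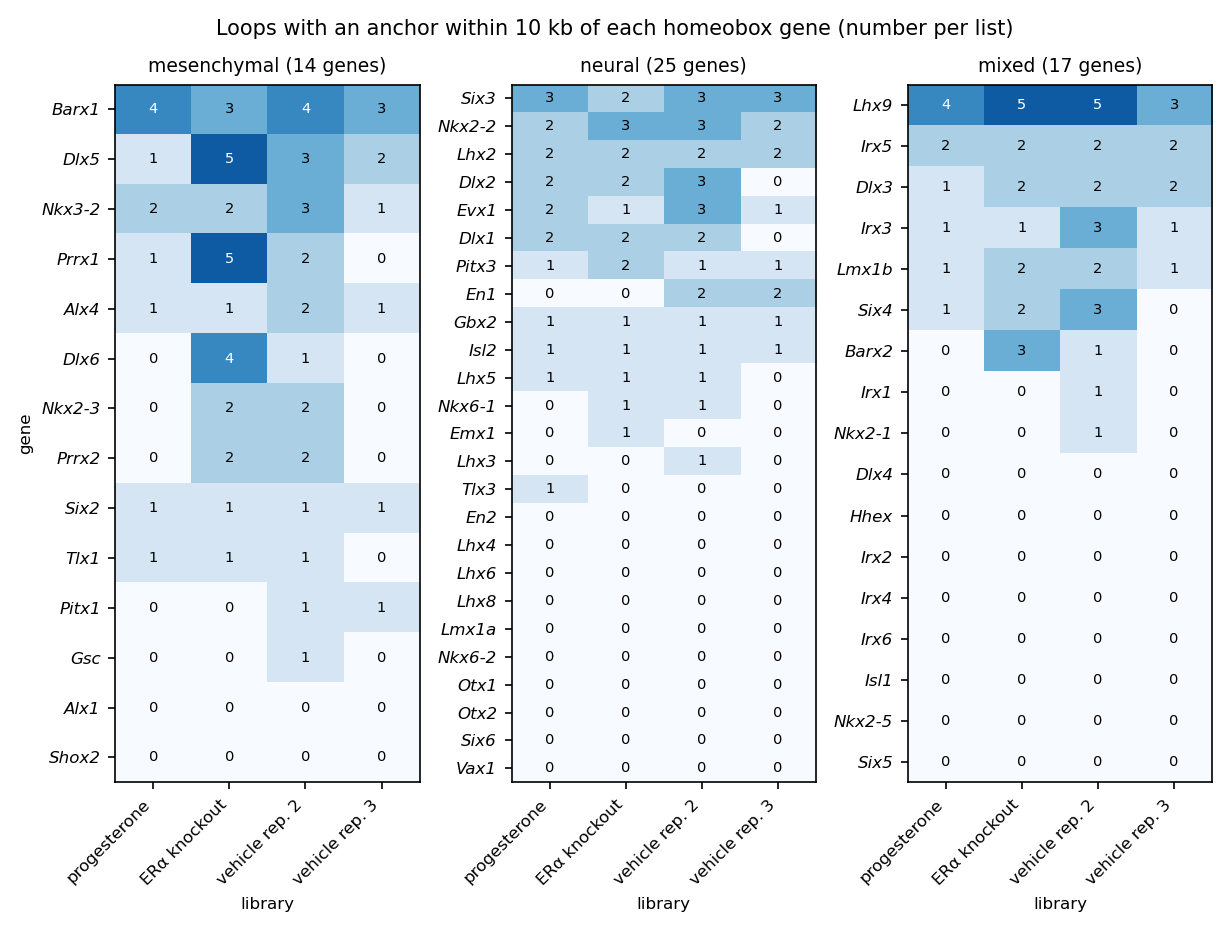
Number of loops with an anchor within 10 kb of each homeobox gene (rows, grouped by class and sorted by their sum) in the progesterone, knockout and vehicle libraries (columns, darker for more loops). Barx1 and Lhx9 had 3 or more loops in every list, and 20 genes had 0 in every list.

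Mesenchymal and neural genes were then set side by side. Among mesenchymal genes, 7 of 14 had a loop after progesterone (50.0%, 23.0 to 77.0), 10 in the knockout (71.4%, 41.9 to 91.6), 12 in vehicle replicate 2 (85.7%, 57.2 to 98.2) and 6 in vehicle replicate 3 (42.9%, 17.7 to 71.1). Among neural genes, 11 of 25 had a loop after progesterone (44.0%, 24.4 to 65.1), 12 in the knockout (48.0%, 27.8 to 68.7), 13 in vehicle replicate 2 (52.0%, 31.3 to 72.2) and 8 in vehicle replicate 3 (32.0%, 14.9 to 53.5). The mesenchymal share was the higher in each list and the intervals overlapped in all 4. Over all protein-coding genes the shares were 50.0%, 65.1%, 57.5% and 45.3% in that order, within the interval of both classes in each list. The mesenchymal share equalled this background after progesterone and was below it in vehicle replicate 3, and the neural share was below it in every list. With 5 kb anchors alone the order turned round in vehicle replicate 3, at 21.4% of mesenchymal and 28.0% of neural genes. Mesenchymal genes had a mean of 0.786 loops after progesterone, 1.86 in the knockout, 1.64 in vehicle replicate 2 and 0.643 in vehicle replicate 3. The neural means were 0.720, 0.760, 0.960 and 0.520 in that order, and those of all protein-coding genes 1.01, 1.90, 1.38 and 0.825. Of the mixed genes, 6, 7, 9 and 5 of 17 had a loop. Genes are not replicates and neighbours share anchors, so no test was made of the classes.

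**Figure D2:**
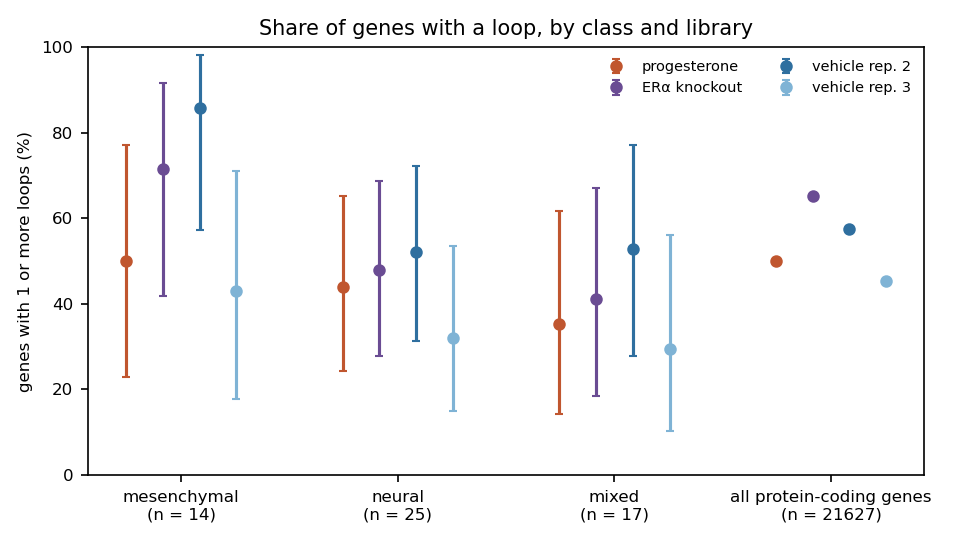
Percentage of genes with 1 or more loops in each class and library, with exact 95% intervals for counting error. The mesenchymal points lie above the neural points in every library, with overlapping intervals; the points at the right give all protein-coding genes.

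Loops at the homeobox genes were next put together across lists by matching anchors, which gave 83 distinct loops at the 56 genes. Of these 24 (28.9%) were called in all 4 lists, 11 (13.3%) in 3 lists, 17 (20.5%) in 2 lists and 31 (37.3%) in 1 list. Over all 27358 distinct loops of the lists the shares were 24.4%, 12.6%, 17.8% and 45.2% in that order. Of 26 distinct loops at neural genes 12 (46.2%) were in all 4 lists, beside 7 of 31 (22.6%) at mesenchymal genes and 5 of 26 (19.2%) at mixed genes. In 2 of the 12, both at En1, some lists placed the anchor just outside the gene window. Counted over all genes of a class, a loop matched in all 4 lists was at 5 of 14 mesenchymal genes (35.7%) and 8 of 25 neural genes (32.0%). Loops in all 4 lists, matched or not, were at 5 of 14 (35.7%) and 7 of 25 (28.0%). These gene shares include genes without any loop, 2 of 14 mesenchymal and 10 of 25 neural genes, so they do not measure sharing alone. Of the knockout loops at neural genes, 15 of 17 were matched in vehicle replicate 2 (88.2%, 63.6 to 98.5), and at mesenchymal genes 13 of 22 (59.1%, 36.4 to 79.3). For all loops of the knockout the value was 55.9%. The other way round the classes did not differ: 16 of 22 loops of vehicle replicate 2 were matched in the knockout in each class (72.7%). Of the progesterone loops at the members 34 of 36 were matched in vehicle replicate 2 (94.4%, 81.3 to 99.3), and of the vehicle replicate 3 loops 28 of 30 were (93.3%, 77.9 to 99.2). Over all loops of those lists the matched shares were 81.0% and 85.7%. Member loops of vehicle replicate 2 were matched less often, 55.6% of them after progesterone, 65.1% in the knockout and 44.4% in vehicle replicate 3. For all loops of vehicle replicate 2 these shares were 58.2%, 74.3% and 49.2%, so the members did not exceed the background in that direction.

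Loops at these genes were long. The median length was 328 kb after progesterone, 300 kb in the knockout, 345 kb in vehicle replicate 2 and 425 kb in vehicle replicate 3, beside 190, 150, 185 and 200 kb over all loops of the same lists. The share of anchors away from the member that held a protein-coding gene was 65.7% (47.8 to 80.9), 57.7% (43.2 to 71.3), 54.1% (40.8 to 66.9) and 58.6% (38.9 to 76.5) in that order. Over all anchors of the lists it was 61.6%, 64.8%, 61.8% and 61.6%, within each interval. Start sites were taken from RefSeq for the 42 members in its promoter table. The start site lay inside the anchor in 10 of 33 gene and loop pairs after progesterone, 16 of 42 in the knockout, 16 of 52 in vehicle replicate 2 and 2 of 23 in vehicle replicate 3. Within 10 kb of the anchor it was in 84.8%, 85.7%, 84.6% and 82.6% of the pairs. Such high shares largely follow from the rule, which takes anchors within 10 kb of the gene body, as most members are short. The start site values were not computed over all genes, so they have no background. The side of the loops was read for members in that table alone, without loops that have both anchors at the same gene. Of such members with 2 or more loops, 9 of 9 after progesterone and 9 of 13 in the knockout had all of them on one side of the gene. The counts were 9 of 15 in vehicle replicate 2 and 6 of 6 in vehicle replicate 3. Over all protein-coding genes with 2 or more loops and a listed start site the shares were 58.0%, 42.3%, 53.1% and 59.4% in that order. Many of the members had exactly 2 loops, and of these 6 of 6, 8 of 9, 4 of 6 and 3 of 3 had both on one side. Among all genes with exactly 2 the shares were 70.9%, 61.5%, 68.6% and 71.6%. The part of loop number in the difference was not tested.

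**Figure D3:**
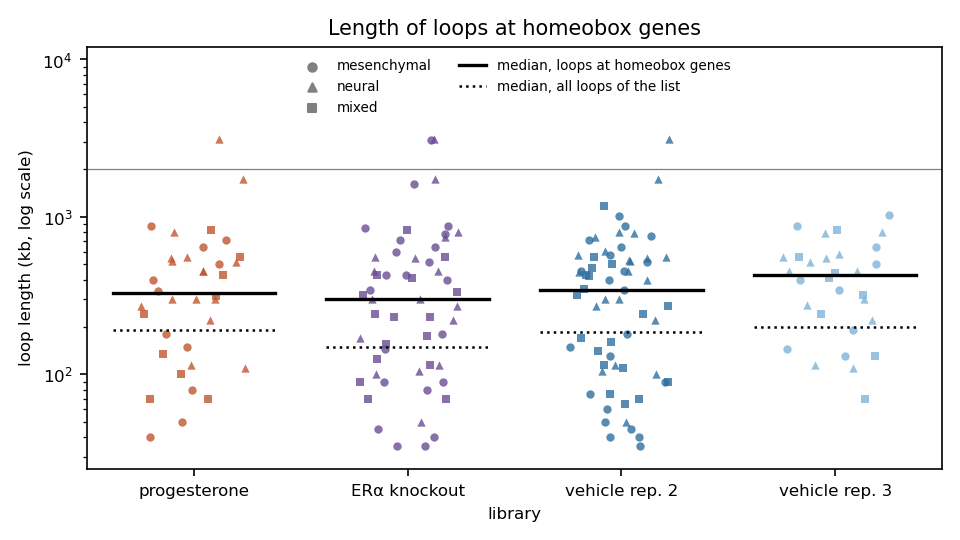
Length of each loop at a homeobox gene (points, kb on a log scale; shape gives the class) in the 4 libraries, with the median of these loops (solid bar) and of all loops of the list (dotted bar). The solid bars lie at 300 to 425 kb and the dotted ones at 150 to 200 kb; the grey line marks 2 Mb.

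Among the mesenchymal genes, Barx1, which acts in stomach and tooth mesenchyme, had the most loops summed over the lists, with 4 after progesterone, 3 in the knockout, 4 in vehicle replicate 2 and 3 in vehicle replicate 3. Within the knockout list Dlx5 and Prrx1 had 5 loops each and Dlx6 had 4, with loops shared with other lists included. The gene Barx1 lies on chromosome 13 (48663036 to 48666507), and all its loops ran downstream. From anchors that began at 48650001 or 48655001, before the start site, loops of 145 to 150 kb, 340 to 345 kb and 500 to 520 kb were in all 4 lists, and the 145 to 150 kb loop ended in Phf2, a histone demethylase gene. A further loop of 75 to 80 kb was in the progesterone and vehicle replicate 2 lists. The lists therefore did not separate by treatment or genotype at Barx1.

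Dlx5 and Dlx6 are neighbours on chromosome 6 (6877801 to 6882068 and 6863334 to 6867970) that pattern the skeleton of limb and jaw. Dlx5 had 1 loop after progesterone, 5 in the knockout, 3 in vehicle replicate 2 and 2 in vehicle replicate 3, and Dlx6 had 0, 4, 1 and 0. Every loop counted for Dlx6 was also counted for Dlx5, so the counts of the pair do not add up. A loop of 870 to 880 kb from Dync1i1 to Dlx5 was in all 4 lists, and one of 1020 to 1030 kb, also from Dync1i1, was in both vehicle lists and in neither of the others. Dync1i1 encodes a dynein chain, and some of its exons are known in the mouse embryo as limb enhancers of Dlx5 and Dlx6. Loops of 760 to 780 kb from Slc25a13, which lies between, were in the knockout and vehicle replicate 2 lists. Loops of 850, 600 and 425 kb were in the knockout list alone. The 850 kb loop missed a match with the 870 to 880 kb loop narrowly, as their anchors at the genes lay 10 kb apart.

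Prrx1 and Prrx2 mark limb and connective tissue mesenchyme. Prrx1 (chromosome 1, 163245119 to 163315145) had 1 loop after progesterone, 5 in the knockout, 2 in vehicle replicate 2 and 0 in vehicle replicate 3. A loop of 40 to 45 kb from the start of Prrx1 was in the progesterone, knockout and vehicle replicate 2 lists. The other 4 knockout loops were in no other list: 40 kb within the gene, 90 kb to Gorab, 425 kb to Fmo2 and 3075 kb to Tada1 and Pogk. One loop of vehicle replicate 2 lay within the gene and was in no other list either. By position it would match the 40 kb knockout loop with 25 kb added to anchors, so these 2 are apart only at the shorter distance. Prrx2 (chromosome 2, 30845064 to 30881251) had 0, 2, 2 and 0 loops in the order progesterone, knockout, vehicle replicates 2 and 3. An 80 kb loop from Prrx2 to Ptges, which encodes a prostaglandin E synthase, was in the knockout list alone. The progesterone and vehicle replicate 3 lists are the 2 shorter ones, and they held 1 and 0 loops at the Prrx genes together. The 2 longer ones held 7 in the knockout and 4 in vehicle replicate 2. The part of list length, treatment or genotype in these counts was not tested.

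Other mesenchymal genes had fewer loops. Nkx3-2, which encodes a transcriptional repressor needed to form the axial skeleton, lies on chromosome 5 (41761483 to 41764220). It had 2 loops after progesterone, 2 in the knockout, 3 in vehicle replicate 2 and 1 in vehicle replicate 3. All ran toward lower positions from the gene, with no protein-coding gene in the far anchors. Its 640 to 645 kb loop was in all 4 lists. Alx4, a limb and skull gene, had 1, 1, 2 and 1 loops in the same order, with one of 180 to 190 kb in all 4 lists. Six2, a kidney progenitor gene, had a single loop of 395 to 400 kb to Srbd1 in each list. Tlx1, which is needed for the spleen, had 1 short loop in every list but that of vehicle replicate 3. Nkx2-3, a gene of spleen and gut mesenchyme, had 0, 2, 2 and 0 loops. One of the knockout loops at Nkx2-3 spanned 1625 kb of chromosome 19, from 43600001 to 43625000 to 45225001 to 45250000, where Lbx1, another homeobox gene, lies. Alx1 and Shox2 had no loop in any list, and Gsc had 1, in vehicle replicate 2, which was matched in the knockout by a 600 kb loop just outside the window. A 35 to 40 kb loop at Nkx2-3 in vehicle replicate 2 was likewise matched outside the window in the progesterone and knockout lists, and one of 35 to 40 kb at Prrx2 in the knockout list.

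Dlx1 and Dlx2, a facing pair on chromosome 2 (71528113 to 71533981 and 71543408 to 71546754) that drives forebrain interneuron formation, took part in the longest loop at any member. It spanned 3125 kb, from 71525001 to 71550000 to 74650001 to 74675000, and so joined the pair with Evx2 and Hoxd13 at the end of the Hoxd cluster. The progesterone, knockout and vehicle replicate 2 lists gave it in the same 25 kb bins. A loop of 1730 to 1740 kb joined the same pair with Sp9, a zinc finger gene of the same interneurons, in the same 3 lists. Vehicle replicate 3 had neither and no loop at Dlx1 or Dlx2, and its longest loop at any member was 1030 kb. Over all loops 1.12% exceeded 2 Mb after progesterone, 1.37% in the knockout, 1.12% in vehicle replicate 2 and 0.725% in vehicle replicate 3. At the members it was 1 of 36 loops, 2 of 55, 1 of 63 and 0 of 30. In any list 3 of the 56 genes (Dlx1, Dlx2 and Prrx1; 5.36%) had such a loop, beside 3.80% of all protein-coding genes.

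Irx3 and Irx5 gave the only loop between 2 members, and it was in all 4 lists. These genes pattern limb, heart and nervous system and lie on chromosome 8 (91798511 to 91801654 and 92357796 to 92361456) in a cluster with Irx6, which had no loop. The loop ran from 91800001 to 91805000 to 92355001 to 92360000 in the knockout and vehicle replicate 2, 555 kb, and from 91800001 to 91810000 to 92360001 to 92370000 after progesterone and in vehicle replicate 3, 560 kb. Both ends thus fell on the genes themselves. Irx5 also had a loop of 820 to 825 kb to Fto in the progesterone, knockout and vehicle replicate 3 lists. Irx3 had 1 loop after progesterone, 1 in the knockout, 3 in vehicle replicate 2 and 1 in vehicle replicate 3; the additional vehicle replicate 2 loops, of 270 and 420 kb, also ended in Fto. Introns of Fto are known from the mouse to hold enhancers that contact Irx3. Of the matching cluster on chromosome 13, Irx1 had 1 loop in vehicle replicate 2 alone and Irx2 and Irx4 had none.

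The stretches before the start sites of Irx3, of the Dlx1 and Dlx2 pair, of Barx1, En1 and Prrx1 are printed to show the kind of promoter that lies at or near these anchors. Irx3 was taken because it is in the loop between members, and the other genes were chosen after their loops were seen. Each is the 250 bases before the start site from RefSeq (GRCm38.p6), 5′ to 3′ on the strand of the gene, with every CpG in capitals. They are chr8:91801655-91801904 (minus strand) for Irx3, chr2:71529195-71529444 (plus) for Dlx1, chr2:71546755-71547004 (minus) for Dlx2, chr13:48662786-48663035 (plus) for Barx1, chr1:120602237-120602486 (plus) for En1 and chr1:163313651-163313900 (minus) for Prrx1. For Dlx1 and Prrx1 the start site in that table lies inside the gene body given above.
Irx3: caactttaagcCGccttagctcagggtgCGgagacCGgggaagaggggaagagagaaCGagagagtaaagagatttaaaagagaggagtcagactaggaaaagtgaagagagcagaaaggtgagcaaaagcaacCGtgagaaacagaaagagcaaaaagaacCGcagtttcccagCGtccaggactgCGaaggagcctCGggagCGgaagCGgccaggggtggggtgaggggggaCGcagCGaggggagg
Dlx1: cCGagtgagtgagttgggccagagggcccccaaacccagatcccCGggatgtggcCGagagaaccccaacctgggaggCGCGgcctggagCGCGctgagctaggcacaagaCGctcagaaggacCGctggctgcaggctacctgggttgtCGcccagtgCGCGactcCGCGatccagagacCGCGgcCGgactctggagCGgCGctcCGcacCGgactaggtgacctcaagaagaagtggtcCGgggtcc
Dlx2: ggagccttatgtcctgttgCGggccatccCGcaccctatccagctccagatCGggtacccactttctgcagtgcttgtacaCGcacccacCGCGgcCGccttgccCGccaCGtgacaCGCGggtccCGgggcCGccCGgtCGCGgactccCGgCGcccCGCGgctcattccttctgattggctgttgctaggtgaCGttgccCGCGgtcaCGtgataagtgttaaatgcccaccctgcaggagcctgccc
Barx1: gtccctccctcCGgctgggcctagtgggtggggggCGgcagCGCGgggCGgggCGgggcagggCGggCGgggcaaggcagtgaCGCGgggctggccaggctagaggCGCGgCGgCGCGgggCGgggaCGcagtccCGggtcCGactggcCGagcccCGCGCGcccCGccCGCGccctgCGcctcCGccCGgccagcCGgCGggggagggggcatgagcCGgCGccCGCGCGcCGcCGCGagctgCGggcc
En1: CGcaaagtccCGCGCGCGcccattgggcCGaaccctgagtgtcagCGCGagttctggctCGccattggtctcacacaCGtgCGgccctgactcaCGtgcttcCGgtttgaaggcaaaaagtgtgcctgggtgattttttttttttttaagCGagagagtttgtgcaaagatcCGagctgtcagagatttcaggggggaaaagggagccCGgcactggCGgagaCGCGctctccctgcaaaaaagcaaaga
Prrx1: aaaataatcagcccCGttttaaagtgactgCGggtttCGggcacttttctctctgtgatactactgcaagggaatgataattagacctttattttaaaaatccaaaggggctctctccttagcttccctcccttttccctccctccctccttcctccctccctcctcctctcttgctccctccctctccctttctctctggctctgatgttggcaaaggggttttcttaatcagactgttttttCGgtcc
Barx1 held 40 CpG in these bases, Dlx2 24, Dlx1 22, En1 19, Irx3 13 and Prrx1 4. Over the whole table window (250 bases before to 50 after the start) the 42 matched members had a median of 19.5 CpG, beside 14.0 over 17273 protein-coding genes. The median was 23.0 for 13 members with loops in every list and 17.0 for 15 members with none. The letters TAATTA, a core site of many homeodomains that reads the same on both strands, were in 2 of the 42 (Otx2 and Prrx1, 4.76%) and in 4.60% of all.

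Among the other neural genes, the loops of Six3, Lhx2 and Nkx2-2 were largely the same in each list. Six3, an eye and forebrain gene (chromosome 17, 85613608 to 85626191), had 3 loops after progesterone, 2 in the knockout, 3 in vehicle replicate 2 and 3 in vehicle replicate 3. Its loops of 790 to 800 kb and 445 to 450 kb, the second to Camkmt, were in all 4 lists, and a 520 to 525 kb loop was in all but the knockout. Lhx2, needed for eye and cortex, had 2 loops in each list, of 450 and 560 kb, both to Dennd1a. Nkx2-2, a ventral spinal cord gene, had 2, 3, 3 and 2 loops, and those of 220 and 545 kb were in all 4 lists. Evx1, a spinal interneuron gene that lies beside the Hoxa cluster, had 2, 1, 3 and 1 loops, one of 270 to 275 kb to Hibadh in all 4. Gbx2, Isl2 and Pitx3 each had a loop in all 4 lists, of 300, 105 to 110 and 115 kb. Of the 25 neural genes 10 had no loop in any list (40.0%, 21.1 to 61.3, with 29.7% of all protein-coding genes). They were En2, Lhx4, Lhx6, Lhx8, Lmx1a, Nkx6-2, Otx1, Otx2, Six6 and Vax1.

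Of the mixed genes, Lhx9, which is needed for the gonad and is also active in limb and brain, had 4 loops after progesterone, 5 in the knockout, 5 in vehicle replicate 2 and 3 in vehicle replicate 3. From inside the gene (chromosome 1, 138825186 to 138848839) loops of 240 and 315 to 320 kb to Dennd1b and of 430 to 440 kb to Crb1 were in all 4 lists. Lmx1b, which sets dorsal limb identity, had 1, 2, 2 and 1 loops, with a 70 kb loop in all 4. Dlx3, an epidermis and placenta gene, had 1, 2, 2 and 2. Six4, a muscle and sensory organ gene, had 1, 2, 3 and 0. Barx2 had 0, 3, 1 and 0. The remaining members without a loop in any list were Dlx4, Hhex, Irx2, Irx4, Irx6, Isl1, Nkx2-5 and Six5, so that 20 of 56 members had none (35.7%, with 29.7% of all protein-coding genes).

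**Figure D4:**
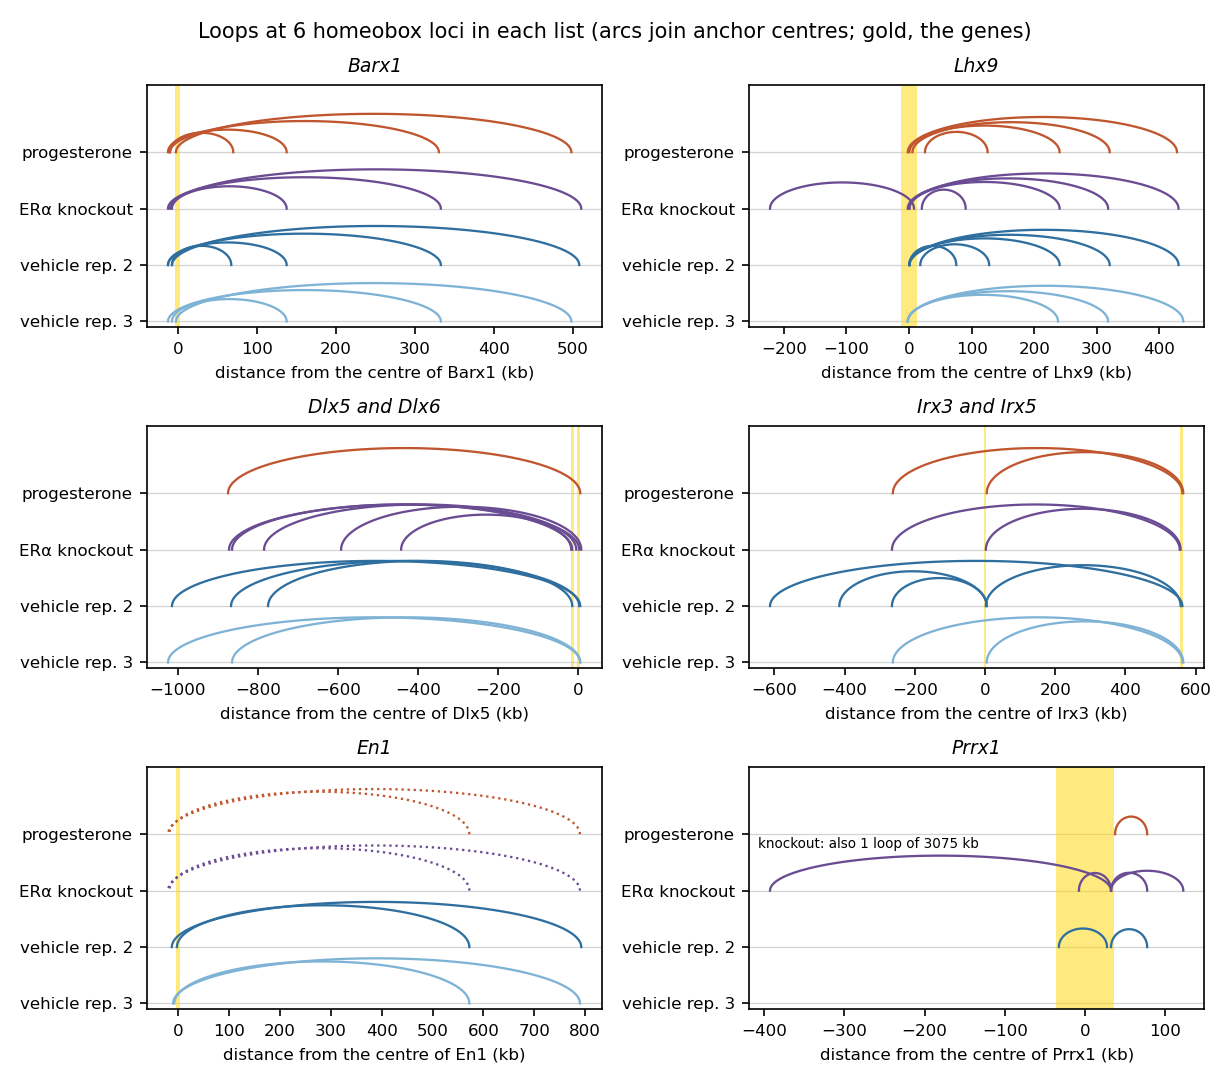
Loops of 6 loci in each list as arcs between anchor centres (horizontal axis, kb from the centre of the named gene; arc height is schematic; gold, gene bodies); dotted arcs are matched loops whose anchor lay more than 10 kb from the gene. The arcs of Barx1 and Lhx9 repeat from list to list, those of Prrx1 are most numerous in the knockout, and the En1 arcs of the progesterone and knockout lists are dotted.

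After progesterone few loops at these genes differed from the vehicle lists. Of the 28 vehicle replicate 2 loops at members that were also in vehicle replicate 3, 3 were not called after progesterone (10.7%, 2.27 to 28.2, beside 15.1% of all such loops), at Dlx5, En1 and Pitx1. At En1 the progesterone list held a similar loop whose anchor lay farther from the gene. The genes with such a loop were thus 3 of 56 (5.36%, with 9.65% of all protein-coding genes). In the other direction 1 of 36 progesterone loops was in neither vehicle list (2.78%, 0.0703 to 14.5, beside 14.8% of all), a 300 kb loop at Evx1 (1 of 56 genes, 1.79%, with 12.7% of all). Without vehicle replicate 2 this count was 11, without vehicle replicate 3 it was 2, and without vehicle replicate 3 the count of 3 became 28. Between the vehicle lists, 35 of 63 member loops of vehicle replicate 2 were not in vehicle replicate 3 (55.6%), at 26 of 56 genes (46.4%, with 42.8% of all), and 2 of 30 the other way, at 2 genes (3.57%, with 11.3% of all).

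In the knockout, 5 of the same 28 vehicle loops were not called (17.9%, 6.06 to 36.9, beside 10.0% of all such loops). They lay at Dlx3, Dlx5, En1, Pitx1 and Six3, which is 5 of 56 genes (8.93%, with 6.47% of all). Without vehicle replicate 3 the count was 22. It was 2 when 25 kb was added to anchors and 4 when 0 kb was added. At En1 the knockout list, too, held a similar loop whose anchor lay farther from the gene. Among 55 loops of the knockout, 16 had no match in either vehicle list (29.1%, 17.6 to 42.9, beside 40.6% of all loops of that list). They lay at 9 of 56 genes (16.1%, with 44.2% of all): 4 at Prrx1, 3 at Barx2, 3 at Dlx5 or Dlx6, 2 at Lhx9, and 1 each at Emx1, Nkx2-3, Pitx3 and Prrx2. By class, 9 of 22 loops at mesenchymal genes were of this kind (40.9%, 20.7 to 63.6), beside 2 of 17 at neural genes (11.8%, 1.46 to 36.4) and 5 of 16 at mixed genes (31.2%, 11.0 to 58.7). The class order was the same between the vehicle lists for mesenchymal over neural genes, where 13 of 22 loops (59.1%) and 9 of 22 (40.9%) of vehicle replicate 2 were not in vehicle replicate 3. Without vehicle replicate 2 the 16 became 31. The 16 also depended on the matching distance, with 11 when 25 kb was added to anchors and 20 when 0 kb was added. For example, the 335 kb knockout loop at Barx2 missed the 350 kb loop of vehicle replicate 2 narrowly, as their first anchors lay 10 kb apart.

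En1 and Pitx1 were the members with loops in both vehicle lists and none after progesterone or in the knockout (2 of 56, 3.57%, with 0.435% of all protein-coding genes). For progesterone alone the background was 3.24%, and for the knockout alone 0.999%. En1, a midbrain and dorsal skin gene (chromosome 1, 120602487 to 120607991), had 0 loops after progesterone, 0 in the knockout, 2 in vehicle replicate 2 and 2 in vehicle replicate 3. The same pair of loops was nonetheless in all 4 lists when anchors were matched, for the 575 kb loop of vehicle replicate 2 only by way of the 580 kb loop of vehicle replicate 3. The progesterone and knockout lists placed the near anchor at 120580001 to 120590000 and 120585001 to 120590000, which is beyond the 10 kb window, with the same far anchors at 121390001 and 121175001. In the vehicle lists the near anchors began between 120590001 and 120600001. At Pitx1, a hindlimb and pituitary gene (chromosome 13, 55825044 to 55836190), a 130 kb loop from 55830001 was in the same bins in both vehicle lists, and no matching loop was in the progesterone or knockout list. Tlx3 showed the opposite of En1: its 1 loop, in the progesterone list, was matched by loops of the knockout and vehicle replicate 2 that lay just outside the window. Tlx3 was the 1 gene with a loop after progesterone and none in a vehicle list (1.79%, with 2.53% of all), and Emx1 the 1 such gene in the knockout (1.79%, with 9.24% of all). None of the 56 had 2 or more loops of that kind, beside 0.203% of all genes after progesterone and 3.45% in the knockout. Between lists the 6 genes Dlx1, Dlx2, Lhx5, Prrx1, Six4 and Tlx1 had loops in every list but that of vehicle replicate 3 (10.7%, with 6.44% of all protein-coding genes), so these genes also differed between the vehicle libraries.

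Other genes of the same kinds, in lists chosen with earlier results of these data known, gave a scale for these counts. Of 55 other homeobox genes outside the Hox clusters, 24 had a loop after progesterone, 30 in the knockout, 32 in vehicle replicate 2 and 24 in vehicle replicate 3 (43.6%, 54.5%, 58.2% and 43.6%). Of 36 mesenchymal transcription factor genes that are not members, nearly all without a homeobox, such as Twist1, Osr1 and Snai2, 31, 32, 30 and 29 had one (86.1%, 88.9%, 83.3% and 80.6%). Of 37 neural ones, which include a few Pax genes with a homeobox, such as Neurod1, Olig2 and Sox2, 7, 14, 13 and 9 had one (18.9%, 37.8%, 35.1% and 24.3%). The mesenchymal members at 42.9% to 85.7% and the neural members at 32.0% to 52.0% lay between these lists, except that the mesenchymal share in vehicle replicate 2 was above 83.3%. The lists were unlike in gene length, with a median of 12.9 kb for the other mesenchymal genes and 4.23 kb for the other neural genes. For the mesenchymal and neural members it was 8.45 and 8.04 kb. The part of gene length in these shares was not tested.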

How the data were processed

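Per the labels' protocols, uterus Hi-C libraries were prepared by an Arima kit. For each of the 4 libraries the authors deposited a list of loops in 6 columns without header: chromosome, start and end of both anchors, in bases. The submitters' processing notes name Juicer 1.5.6 and mm10; no source used here names how loops were called or at what threshold. Anchors measure 5, 10 or 25 kb, and starts were written from 1. No contact counts were used, so depth, and the precision it gives, is unknown.

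Gene positions were those of RefSeq on GRCm38.p6 (mm10), where all 56 members matched. A loop counted as found in another list when both anchors, with 10 kb added to each side, overlapped those of a loop there. Distinct loops were built by linking matches across lists, directly or through another list. Loop length is the difference of anchor starts. Samples were grouped by the labels. The members and lists were chosen with earlier results of these data known. Genes named were those in loops over 2 Mb or between members, the 6 with most loops in each class, those with loops in the vehicle lists alone or the reverse, and those without loops; others named were chosen after their values were seen. Alternatives were other gene windows, anchor sizes, matching distances, classes and vehicle replicates. The matching and counting steps were tested on simulated data. Python 3.11.15, numpy 2.4.6, pandas 2.3.3, scipy 1.17.1 and matplotlib 3.10.9 were used. Strength-based tests need contact counts and were left out.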

Additional observations from a re-analysis of the deposited data

How the results depend on the processing

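Depth and loop strength are unknown, 2 of the 3 groups have 1 library, and the vehicle lists differ in length, which bears on every count between libraries. No paired analysis was possible because the groups share at most 1 replicate number and no result comes from a test. The order of mesenchymal over neural shares held in every list under each alternative but 5 kb anchors, where it turned round in vehicle replicate 3 (21.4% against 28.0%); it held with the broad mesenchymal class (55.0% to 85.0% over 32.0% to 52.0%) and with neighbours within 200 kb counted once (46.2% to 84.6% over 33.3% to 50.0%). With gene bodies alone (0 kb window), loops at the members numbered 20 after progesterone, 39 in the knockout, 38 in vehicle replicate 2 and 17 in vehicle replicate 3, the neural share after progesterone was 24.0%, and progesterone loops in neither vehicle list numbered 0; with a 25 kb window the last was 2, and loops numbered 74 in the knockout and 72 in vehicle replicate 2. With 5 kb anchors alone, loops numbered 14 after progesterone, 31 in the knockout, 40 in vehicle replicate 2 and 14 in vehicle replicate 3. Members with a loop then numbered 12 after progesterone and 12 in vehicle replicate 3, the mesenchymal share in vehicle replicate 2 was 57.1%, and the neural share was 20.0% after progesterone and 20.0% in the knockout. The loops that both vehicle lists held and the progesterone list lacked numbered 5 and the reverse 0, and for the knockout 2 and 10. Loops over 2 Mb numbered 0 after progesterone, 0 in the knockout and 0 in vehicle replicate 2, with 5 kb anchors and with 5 and 10 kb anchors, since all have 25 kb anchors; loops between members numbered 0 after progesterone and 0 in vehicle replicate 3 with 5 kb anchors. With a threshold of 1 Mb, long loops numbered 2 after progesterone, 4 in the knockout, 4 in vehicle replicate 2 and 1 in vehicle replicate 3. With 0 kb added to anchors, 75.0% of progesterone and 53.3% of vehicle replicate 3 loops were found in vehicle replicate 2, and 7 progesterone loops were in neither vehicle list. With 25 kb added, loops in both vehicle lists numbered 1 not after progesterone and 2 not in the knockout, and 0 progesterone loops were in neither vehicle list. Leaving out vehicle replicate 2 or 3 gave 3 to 28 loops not called after progesterone and 2 to 11 in the reverse direction, and 4 to 22 not called in the knockout and 18 to 31 in the reverse direction. For the moved values other than these constructions, the cause was not tested.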
